A study of Mus musculus with 4 samples.

Results

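The genes described here build and run the primary cilium, a single antenna-like projection of the cell membrane. They were 35 named genes of the transport machinery of the cilium, chosen by symbol and by known role, out of 23946 gene symbols in each expression table, and all 35 were found in every table. Skeletal stem/progenitor cells (CD51+;CD200+) had been isolated by FACS from 3 skull sutures, coronal (COR), sagittal (SAG) and posterior frontal (PF), and from the growth plate of the tibia (GP). All mice were wild-type CD-1 animals at postnatal day 3 with no treatment, and the PF suture is the one that later closes in the mouse while the SAG and COR sutures remain unfused. Each tissue gave 1 RNA-seq library of cells sorted from a group of mice, so that a difference between tissues and a difference between libraries cannot be told apart, and no p-value or replicate error could be given. The sort kept cells without surface markers of blood, endothelium and more mature stroma, and the labels and methods give no count of sorted cells per library.

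Primary cilia are assembled by intraflagellar transport, in which trains of the IFT-B and IFT-A complexes carry cargo along the microtubule core. Kinesin-2 drives the trains towards the tip and dynein-2 drives them back, while the BBSome, a coat complex loaded by the small GTPase ARL6, moves membrane receptors in and out of the cilium. In skeletal tissue the cilium is known as the site where Hedgehog signals are processed, and inherited defects in several of these genes cause skeletal ciliopathies, some of them with premature fusion of skull sutures.

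RFX transcription factors are known to bind the promoters of many ciliary genes through a motif called the X-box, whose left arm is written here as GTTGCC. Promoters from 250 bases before to 50 bases after the start site (RefSeq, GRCm38.p6) were matched for 30 of the 35 genes; *Ift80*, *Ift81*, *Ttc30b*, *Ift122* and *Dync2li1* were not matched. GTTGCC was present on either strand in a promoter of 12 of the 30 genes (40%), against 14.1% of all 27025 genes with a promoter and 14.8% of the 10379 of them expressed in these libraries. The promoters were of like base composition, with a median GC content of 59.8% for the 30 and 60.7% for the expressed genes. A whole X-box, searched on both strands with a spacer of 0 to 3 bases between its arms, was found in 2 of the 30 (6.67%), *Ift57* and *Bbs1*, against 1.75% of all genes and 1.98% of the expressed genes. With the spacer held at 2 bases it was found in 2 of the 30, against 0.796% of all genes and 1.13% of the expressed genes, and in both genes the whole X-box overlaps the GTTGCC shown. The windows below show this arm in the genes with a whole X-box and in *Ift88*, *Wdr35*, *Bbs5* and *Bbs7*, 4 genes lower in PF than in SAG by at least 2-fold, and were found unchanged in the NCBIM37 (mm9) build, whose coordinates are given. Capitals mark GTTGCC or, on the opposite strand, GGCAAC, and all are read 5′ to 3′ along the gene.
Ift57 (chr16:49699308-49699337, plus strand, first capital at -87 from the start site): gaggcgggtctgGTTGCCgtggtgaccggc
Bbs1 (chr19:4906609-4906638, minus strand, first capital at base 2): atggctgagctgGTTGCCaaggcgacgcct
Ift88 (chr14:58042917-58042946, plus strand, first capital at base 22): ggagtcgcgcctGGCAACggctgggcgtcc
Wdr35 (chr12:8980827-8980856, plus strand, first capital at base 41): gatgcgactgggcggcggtgGTTGCCaggc
Bbs5 (chr2:69485248-69485277, plus strand, first capital at base 43): gatgtcgtgacaaagccggcgcGTTGCCtt
Bbs7 (chr3:36512415-36512444, minus strand, first capital at -121): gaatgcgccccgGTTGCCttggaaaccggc
The other promoters with the arm were those of *Ift27*, *Ift172*, *Ift140*, *Kif3a*, *Dync2h1* and *Arl13b*. Of the other genes lower in PF than in SAG by at least 2-fold, *Kif3b*, *Arl6*, *Bbs9* and *Ttc8* were matched and lacked GTTGCC. *Ift122* and *Dync2li1*, also lower by that rule, were not matched. A match of letters is a description of these windows and not a measured binding site.

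Expression was measured as FPKM, the sequenced fragments of a gene scaled to transcript length and to library size, which is a level per length and so can be set side by side between genes. Where 4 levels follow each other without names, they are those of PF, SAG, COR and GP. Genes at 1 FPKM or more numbered 11402 to 12263 per library. Fragment totals were not given, and the smallest steps of FPKM times gene length put the depth of the PF library at 44.5% of the SAG library, of the COR library at 88.3% and of the GP library at 83.8%. At a given level, PF values thus rested on the fewest fragments. *Itgav*, which encodes CD51, was at 6.20 to 15.0 FPKM and *Cd200* at 23.5 to 62.6 FPKM, so both sorting markers were present in every library. *Hoxa10*, a positional gene of the limb, was at 79.6 FPKM in GP and at 0.145 to 0.594 FPKM in the sutures.

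The SAG and PF libraries each stood apart in markers of other cells, summed over lists of known marker genes. Motile cilia genes, such as those of outer dynein arms and radial spokes, structures that primary cilia lack, although both kinds of cilium use the same transport machinery, summed to 194 FPKM in SAG against 32.1 in PF, 21.8 in COR and 30.1 in GP, and 16, 6, 4 and 5 of the 20 were at 1 FPKM or more. *Pifo* was at 0 in PF, *Dnah11*, *Rsph4a*, *Spag6*, *Spag16* and *Tmem212* in COR, and *Dnah11*, *Spag6*, *Tekt4* and *Hydin* in GP, while none of the 20 was at 0 in SAG. Of the motile cilia list, *Mlf1* had the highest level, with 57.3 FPKM in SAG, 0.471 in PF, 3.53 in COR and 11.6 in GP. Choroid plexus markers, from a brain tissue with multiciliated cells, summed to 5398 FPKM in SAG and to 599, 244 and 266 in PF, COR and GP, most of the SAG sum being *Ttr* (5103 FPKM in SAG, 465 in PF, 141 in COR and 9.74 in GP). Gene by gene, SAG was above PF for 9 of the 11 tested, above COR for 9 of 10 and above GP for 7 of 11. *Aqp1* was lowest in SAG, at 11.9 FPKM against 24.2 in PF, 53.8 in COR and 41.1 in GP. *Sostdc1*, *Enpp2* and *Prlr* were also higher in GP than in SAG. Proliferation genes summed to 34.7 FPKM in PF against 149 to 176 in the other libraries, with *Birc5* at 11.8 for PF, 44.0 for SAG, 78.8 for COR and 57.3 for GP. Whether RNA of these cells contributes to the ciliary gene levels given next was not tested. In bulk libraries, fewer cells of a type and less RNA per cell cannot be told apart.

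Primary cilium genes were expressed in all 4 libraries. Of the 35, 32 were at 1 FPKM or more in PF, all 35 in SAG and 33 each in COR and GP, and 31 were so in every library. The median level of the 35 was 5.55 FPKM for PF, 10.005 for SAG, 6.65 for COR and 6.43 for GP, while the median of all genes at 1 FPKM or more lay between 10.2 and 11.1 in every library. Levels spanned a wide range within the set. *Ift20* was the highest in every library, and the same 5 genes, *Ift20*, *Ift27*, *Arl3*, *Ift43* and *Ift22*, took the top 5 places in each. The lowest was *Kif3b* in PF, *Bbs10* in COR and *Bbs1* in SAG and GP. Summed over the set, the level was 560 FPKM for PF, 678 for SAG, 647 for COR and 620 for GP.

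**Figure D1:**
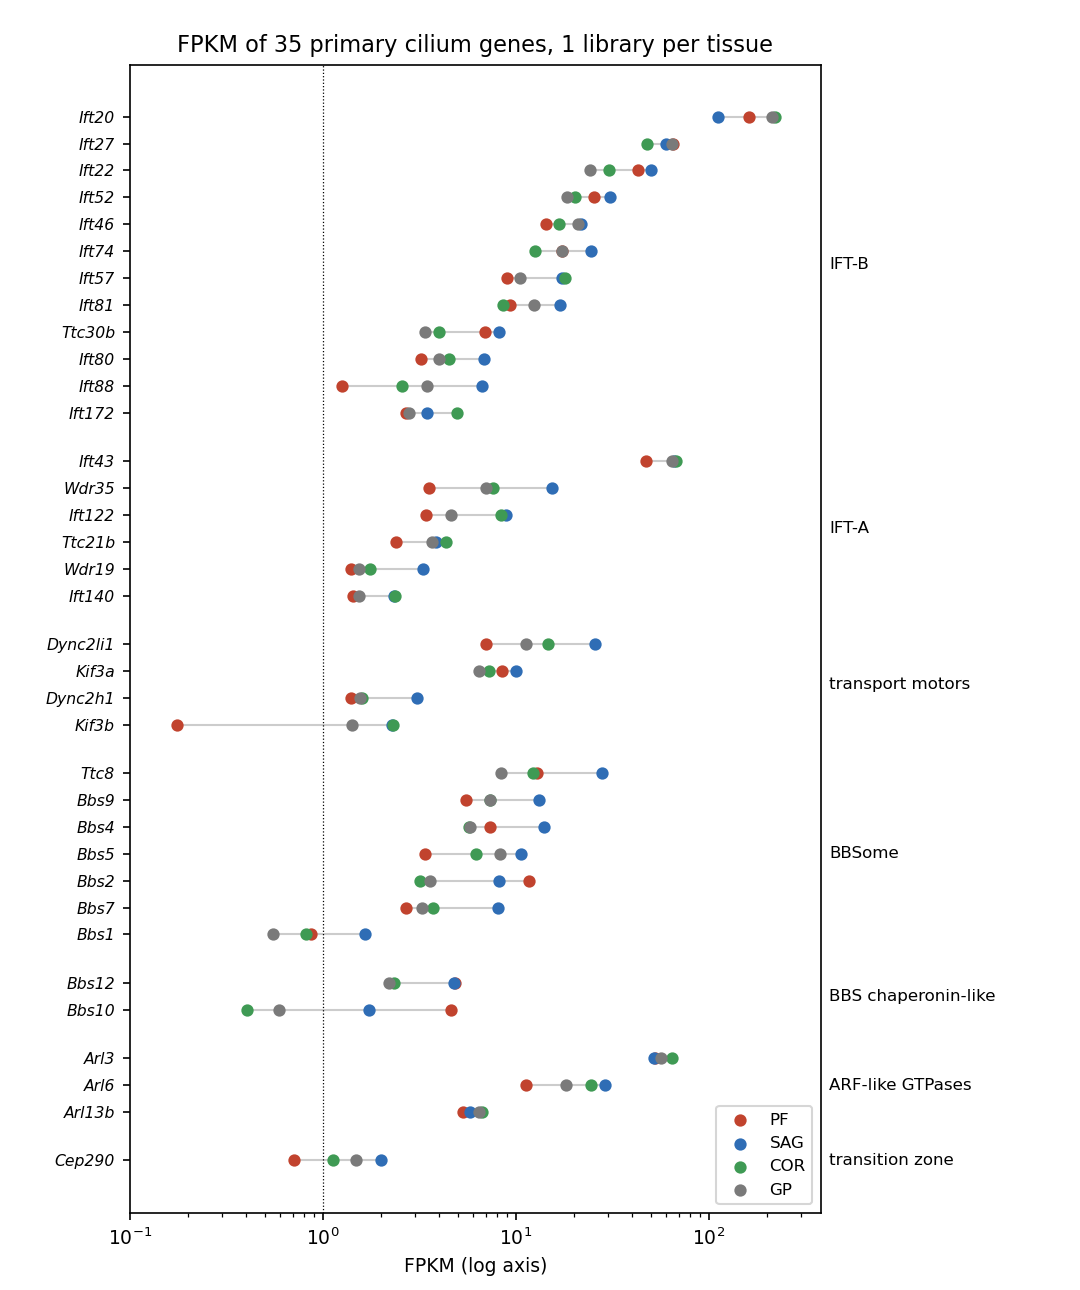
FPKM of each of the 35 genes (log axis), grouped by role, with 1 point per library and a dotted line at 1 FPKM. SAG is the rightmost point for 22 of the 35 genes and PF the leftmost for 20, and *Kif3b* in PF, at 0.176 FPKM, lies farthest to the left.

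IFT-B, the complex that travels with kinesin-2 towards the ciliary tip, was represented by 12 genes with a median of 11.9 FPKM for PF, 19.6 for SAG, 14.6 for COR and 14.9 for GP. *Ift20*, which also works at the Golgi in sorting cargo for the cilium, was at 162 FPKM for PF, 111 for SAG, 220 for COR and 212 for GP (mm9, chr11:78349863-78355239). It went against most of the set, being lowest in SAG. *Ift27*, a small GTPase subunit, was at 65.2, 59.8, 47.7 and 64.2 FPKM in PF, SAG, COR and GP. *Ift22*, another GTPase subunit listed as *Rabl5* in older annotation, was at 43.2, 50.3, 30.4 and 24.2 FPKM in that order. *Ift27* thus varied little, while *Ift22* was higher in SAG than in GP by 1.03 on the log2(FPKM + 1) scale.

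Among the core subunits of IFT-B, *Ift88* (mm9, chr14:58042899-58136773), whose hypomorphic allele is a classic mouse model of defective cilia, was at 1.26 FPKM for PF, 6.68 for SAG, 2.59 for COR and 3.48 for GP. PF was the lowest and SAG the highest, a 5.29-fold ratio in FPKM, with an estimated 67.5 fragments behind the PF value and 802 behind the SAG value. *Ift74* and *Ift81*, which form the tubulin-binding pair, were at 17.3 and 9.36 FPKM for PF, 24.5 and 16.9 for SAG, 12.5 and 8.64 for COR, and 17.4 and 12.4 for GP, so SAG was highest and COR lowest for both. *Ift46* was at 14.4, 21.8, 16.7 and 20.9 FPKM and *Ift52* at 25.4, 30.6, 20.2 and 18.4 FPKM in PF, SAG, COR and GP. *Ttc30b*, which encodes a subunit that holds on to kinesin-2, was at 6.91, 8.18, 4.01 and 3.40 FPKM, but reads of its near-identical paralogs *Ttc30a1* and *Ttc30a2* may have been split between them, so these values are uncertain.

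The peripheral IFT-B subunits lie on the side of the train that meets the motor. *Ift80*, mutated in Jeune thoracic dystrophy, was at 3.24 FPKM for PF, 6.85 for SAG, 4.50 for COR and 4.02 for GP. *Ift57* was at 9.0, 17.4, 18.1 and 10.5 FPKM and *Ift172* at 2.70, 3.45, 4.95 and 2.80 FPKM in that order. All 3 were lowest in PF, while COR was highest for *Ift57* and *Ift172*. A noncoding gene on the opposite strand overlaps *Ift57* and another overlaps *Ift88*, and unless the counting used strand, which is not given in the sources used here, their reads cannot be told apart.

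IFT-A, which returns cargo to the cell body and lets membrane proteins into the cilium, was the role with the most uniform order. As deposited, all 6 of its genes were lowest in PF, against 35.8% of all genes tested, and the medians were 2.91 FPKM for PF, 6.38 for SAG, 6.0 for COR and 4.16 for GP. The gap to GP was small for *Ift140* and *Wdr19*, at -0.07 and -0.09 on the log2(FPKM + 1) scale. After a correction for GC content *Wdr19* was at 0.07. Relative to *Gapdh*, a scaling that moved the PF to GP median of all genes to 0.46, 4 of the 6 were higher in PF than in GP. *Wdr35* (mm9, chr12:8980698-9035653), mutated in a cranioectodermal dysplasia in which sutures close early, was at 3.57 FPKM for PF, 15.3 for SAG, 7.63 for COR and 6.97 for GP. *Ift122*, of the same disease group, was at 3.41, 8.92, 8.41 and 4.64 FPKM, and *Wdr19* (IFT144) at 1.40, 3.31, 1.76 and 1.55 FPKM. SAG was highest for each of these 3. *Ift43* (listed as 1700019E19Rik in older annotation) was at 47.5, 66.3, 67.5 and 64.8 FPKM, *Ift140* at 1.43, 2.34, 2.36 and 1.55 FPKM, and *Ttc21b* (IFT139) at 2.41, 3.84, 4.37 and 3.68 FPKM. For these the COR value was the highest, with SAG next to it.

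The motors gave one of the widest contrasts in the set. *Kif3b* (mm9, chr2:153117149-153159126), one of the heterodimeric kinesin-2 motor chains, was at 0.176 FPKM for PF, 2.28 for SAG, 2.31 for COR and 1.42 for GP. Its PF value rested on an estimated 17.2 fragments, against 261 to 500 in the other libraries, and in FPKM it was 13.0-fold higher in SAG, 13.1-fold in COR and 8.07-fold in GP than in PF. The partner chain *Kif3a* did not share this gap, at 8.49 FPKM for PF, 10.005 for SAG, 7.29 for COR and 6.47 for GP. The FPKM ratio of *Kif3a* to *Kif3b* was therefore 48.2 in PF and 4.39, 3.15 and 4.55 in SAG, COR and GP. *Il4* overlaps *Kif3a* on the opposite strand. *Dync2h1*, the dynein-2 heavy chain, was at 1.41 FPKM for PF, 3.07 for SAG, 1.60 for COR and 1.56 for GP. *Dync2li1* (mm9, chr17:85025836-85054898), its light intermediate chain, was at 6.98, 25.9, 14.7 and 11.3 FPKM. Both dynein-2 genes were lowest in PF and highest in SAG.

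BBSome genes were mostly highest in SAG. Of its 7 genes, 6 were highest in SAG, against 28.4% of all genes, and their levels summed to 83.8 FPKM in SAG, 44.5 in PF, 39.3 in COR and 37.2 in GP. *Ttc8* (BBS8; mm9, chr12:100158784-100221448) was at 12.9 FPKM for PF, 28.0 for SAG, 12.2 for COR and 8.40 for GP. *Bbs4* was at 7.34, 14, 5.72 and 5.81 FPKM, *Bbs9* at 5.55, 13.2, 7.36 and 7.33 FPKM, and *Bbs7* at 2.71, 8.09, 3.75 and 3.28 FPKM. *Bbs5*, a subunit that binds phosphoinositides, was at 3.40, 10.6, 6.26 and 8.26 FPKM. For these 5 the SAG library was the highest. *Bbs1*, the subunit that contacts ARL6, was at 0.872, 1.65, 0.823 and 0.553 FPKM, with an estimated 84.2, 358, 158 and 101 fragments. *Bbs2* (mm9, chr8:96591854-96622711) was the exception, at 11.7 FPKM for PF, 8.21 for SAG, 3.20 for COR and 3.61 for GP.

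*Bbs10* and *Bbs12* encode chaperonin-like proteins that help assemble the BBSome, and both were highest in PF. *Bbs10* (mm9, chr10:110735735-110738792) was at 4.62 FPKM for PF, 1.75 for SAG, 0.405 for COR and 0.592 for GP, resting on an estimated 220, 187, 38.3 and 53.1 fragments. It had the widest range of the set on the log2(FPKM + 1) scale, and in FPKM the gap was 11.4-fold between PF and COR and 7.81-fold between PF and GP. *Bbs12* was at 4.82, 4.76, 2.33 and 2.21 FPKM, with PF and SAG nearly equal. *Bbs12* overlaps *Fgf2* on the same strand and *Cetn4* on the opposite strand.

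ARF-like GTPases load and unload ciliary membrane cargo. *Arl3*, which releases lipidated proteins inside the cilium, was at 52.8 FPKM for PF, 51.7 for SAG, 64.2 for COR and 56.7 for GP. *Arl13b*, a marker protein of the ciliary membrane, was at 5.34, 5.81, 6.65 and 6.43 FPKM. Both were nearly level across the libraries, and *Arl13b* had the narrowest range of the 35, 0.27 on the log2(FPKM + 1) scale. *Arl6* (BBS3), which recruits the BBSome to membranes, was at 11.3 FPKM for PF, 28.9 for SAG, 24.7 for COR and 18.3 for GP. *Cep290*, which tethers membrane to microtubules at the transition zone, the gate at the base of the cilium, was at 0.709, 2.01, 1.14 and 1.49 FPKM. *Arl6* and *Cep290* were both lowest in PF and highest in SAG, and *Cep290* overlaps 4930430F08Rik on the opposite strand.

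**Figure D2:**
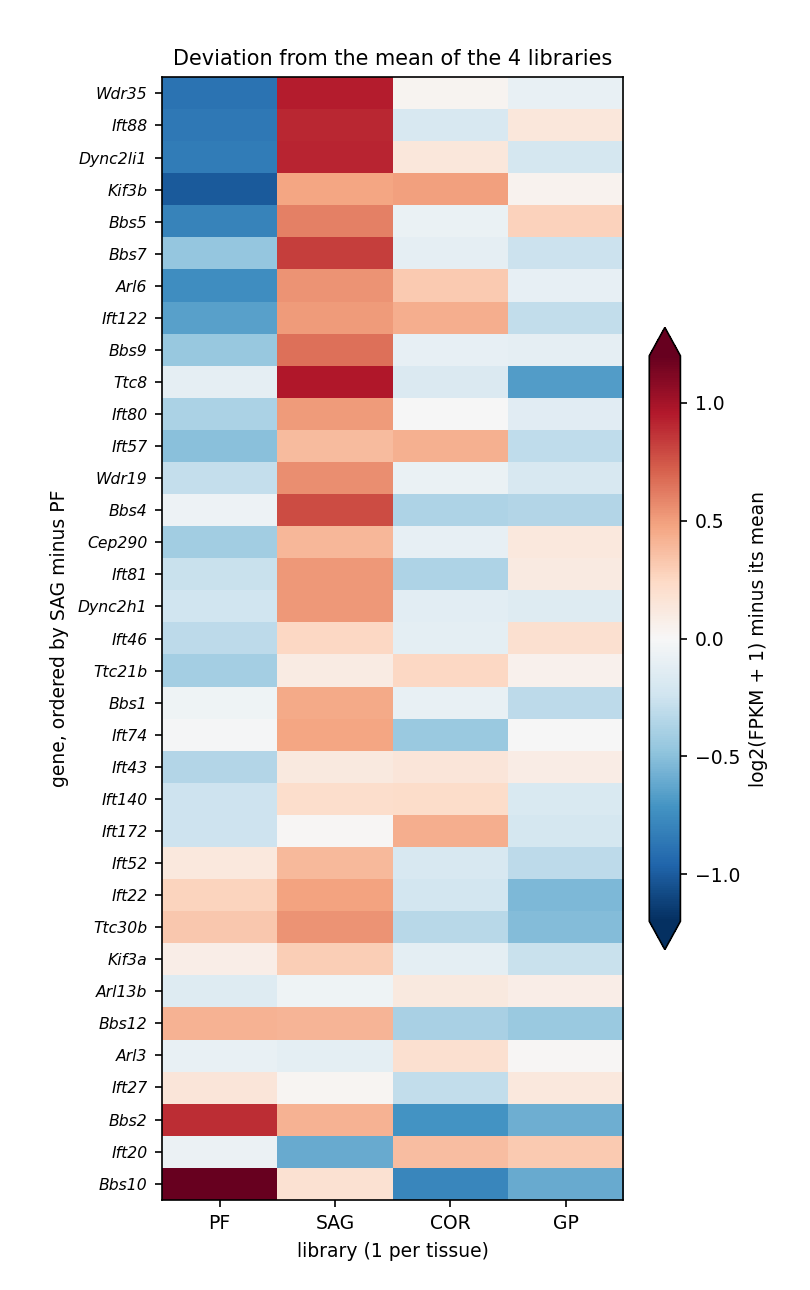
Log2(FPKM + 1) of each gene in each library, shown as the deviation of each of the 35 genes from its own mean over the 4 libraries. The SAG column is the highest for 22 genes and the PF column the lowest for 20, with *Bbs10*, *Bbs2* and *Ift20* running the other way in PF against SAG.

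Across the set, SAG was the highest library for 22 of 35 genes (62.9%), where 28.4% of all genes tested were highest in SAG. COR was the highest for 9, PF for 4 and GP for 0. PF was the lowest library for 20 (57.1%), where 35.8% of all genes were lowest in PF, and GP was the lowest for 7, COR for 6 and SAG for 2. Both applied to 13 genes, *Ift46*, *Ift80*, *Ift88*, *Ift122*, *Wdr19*, *Wdr35*, *Dync2h1*, *Dync2li1*, *Bbs5*, *Bbs7*, *Bbs9*, *Arl6* and *Cep290*, against 16.6% of all genes. Without the SAG library PF was lowest for 22 of 35, against 42.3% of all genes. Without the PF library SAG was highest for 25, against 41.8%, and GP lowest for 22, against 28.2%. After a correction of each library for GC content, SAG was highest for 21 (27.4% of all genes) and PF lowest for 15 (34.2%), with GP lowest for 13 (18%). Relative to *Gapdh*, which itself was at 281 FPKM for PF, 407 for SAG, 335 for COR and 389 for GP, 14 were highest in SAG (18% of all genes) and 8 lowest in PF (23.3% of all genes), so the PF count was then at the background share. GP was lowest for 18 in that scaling, against 23.9% of all genes.

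PF and SAG, the closing and an open midline suture, gave the most genes past 2-fold of the 6 pairs, 11 of 35 in both directions together. By that rule 18.5% of all genes were lower in PF and 16.2% higher. The pair also had the largest share of all genes past 3-fold in either direction, 15.7%. Of the 35 genes, 29 (82.9%) were lower in PF, while 49.0% of all genes tested were. The median log2 ratio of FPKM + 1 was -0.56, with the lower and upper quartiles at -1.09 and -0.22, and the median of all genes was 0.03. Past 3-fold on that scale were 3 genes lower in PF (8.57%), *Wdr35* at -1.84, *Ift88* at -1.76 and *Dync2li1* at -1.75, beside 9.04% of all genes lower by that rule, so the share past 3-fold was near the background. None was past 3-fold higher in PF, beside 6.64% of all genes. *Kif3b* at -1.48, *Bbs5* at -1.40, *Bbs7* at -1.29, *Arl6* at -1.29, *Ift122* at -1.17, *Bbs9* at -1.12 and *Ttc8* at -1.06 were lower by at least 2-fold as well. That made 10 of 35 (28.6%), beside 18.5% of all genes. In the opposite direction *Bbs10* was at 1.03, the 1 gene higher in PF by 2-fold, beside 16.2% of all genes.

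The PF to SAG ratio also moved with base composition over the whole transcriptome. With all genes split into 5 equal groups from low to high GC content, the median log2 ratio of all genes was -0.41, -0.24, 0.01, 0.25 and 0.51. Ciliary genes lay mainly in the groups of lower GC content, with 10, 12, 8, 5 and 0 in each, and their median GC content was 46.6% against 50.3% of all genes. After the ratios were corrected for GC content, 28 of 35 genes were still lower in PF, the median was -0.49, and 0 genes were past 3-fold lower in PF, beside 8.49% of all genes, with *Wdr35* at -1.58, *Dync2li1* at -1.52, *Ift88* at -1.40 and *Kif3b* at -1.39. By 2-fold, 5 of 35 (14.3%) were then lower in PF, beside 16.2% of all genes. Thus the direction was held by most genes under this correction while the share past either fold was not above the background. The cause of the GC trend was not tested.

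**Figure D3:**
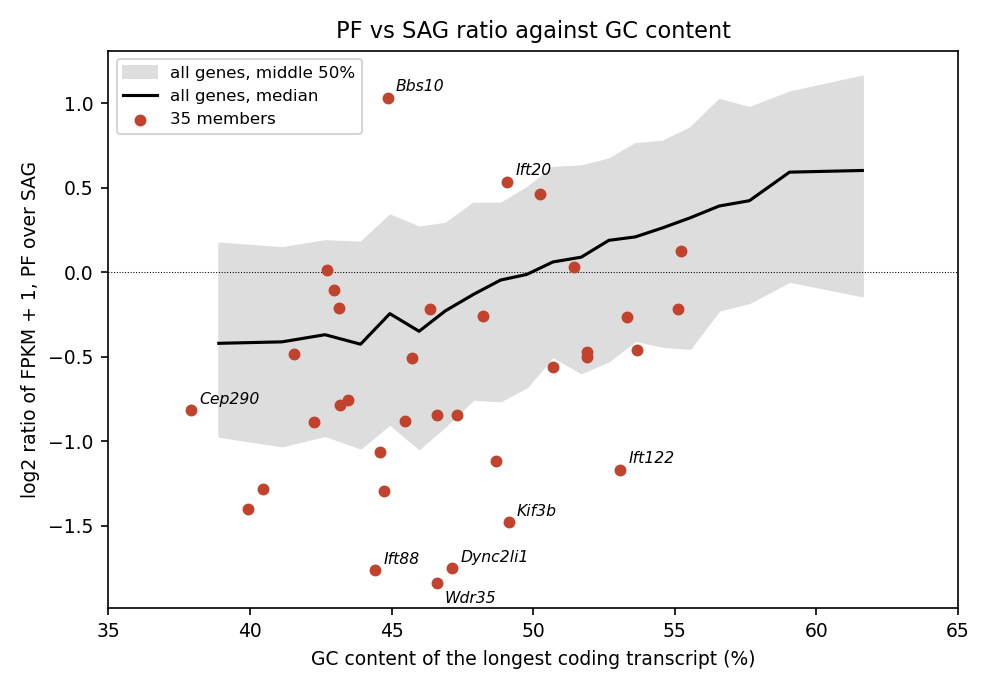
Log2 ratio of FPKM + 1, PF over SAG, against the GC content of the longest coding transcript (%), with the 35 genes as points and the median and middle 50% of all genes as line and band. The line climbs with GC content, and 29 of the 35 points lie below 0, *Wdr35*, *Ift88* and *Dync2li1* being the lowest.

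Against COR, the other open suture, 22 of the 34 genes tested were lower in PF (64.7%, beside 47.7% of all genes), with a median of -0.30. The 2 genes past 3-fold were both higher in PF, *Bbs10* at 2.0 and *Bbs2* at 1.60, beside 6.81% of all genes higher by that rule and 4.87% lower. *Kif3b* at -1.49, *Ift122* at -1.09 and *Arl6* at -1.06 were lower in PF by 2-fold, 8.82% of the genes beside 12.8% of all. All 6 IFT-A genes lay below 0, with a median of -0.58. After GC correction 21 of the 34 were lower in PF, beside 48.7% of all genes. The median of the set was -0.13 after GC correction and -0.057 relative to *Gapdh*, a scaling that moved the median of all genes to 0.29.

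PF and GP differed less by the median. Of 34 genes tested, 24 were lower in PF (70.6%, beside 48.7% of all genes), with a median of -0.20 as deposited. After GC correction the median was -0.10, and only 18 of the 34 were lower in PF while 16 were higher. Of all genes 49.0% were then lower, so the count was near the background share. Relative to *Gapdh* the median was 0.19, a scaling that moved the median of all genes to 0.46. The sign thus turned while the set stayed below all genes. *Bbs10*, at 1.82, was the 1 gene past 3-fold higher in PF, beside 5.72% of all genes higher and 6.24% lower, and *Bbs2* was at 1.46. *Bbs5* at -1.08 and *Kif3b* at -1.04 were lower in PF by 2-fold, 5.88% of the genes beside 14.4% of all. The 6 IFT-A genes were again below 0, with a median of -0.40 as deposited and 0.02 relative to *Gapdh*, again below the 0.46 of all genes.

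SAG was above COR and above GP for most of the set. Against COR, 26 of 35 genes were higher in SAG (74.3%, beside 51.4% of all genes), with a median of 0.58. No gene was past 3-fold, beside 6.15% of all genes higher in SAG and 3.11% lower, and 4 were past 2-fold (11.4%, beside 12.5%), *Bbs4* at 1.16, *Ttc8* at 1.13, *Bbs2* at 1.13 and *Ift88* at 1.10. Against GP, 31 of 35 were higher in SAG (88.6%, beside 52.1%), with a median of 0.67. *Ttc8* at 1.63 was past 3-fold, beside 4.8% of all genes higher in SAG and 3.86% lower, and was at 1.576, just under it, after GC correction, where 4.68% of all genes were past it. By 2-fold, 7 genes were higher in SAG (20%, beside 9.81% of all), *Ttc8*, *Bbs4*, *Dync2li1*, *Bbs7*, *Ttc30b*, *Wdr35* and *Ift22*. After GC correction the medians were 0.50 against COR and 0.61 against GP, with 28 and 31 genes higher in SAG. These 2 comparisons and that of PF with SAG share the SAG library, in which motile cilia markers were at their highest.

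By role, the BBSome was the most uniform in SAG, with all 7 genes above 0 against COR (median 0.94) and against GP (median 1.0), while its PF to SAG median was -1.06. IFT-A was above GP for all 6 genes (median 0.57) but level with COR (median 0.03). IFT-B medians were 0.55 over COR and 0.56 over GP, and motor genes were above GP for all 4 (median 0.62). In PF against SAG the medians were -0.38 for IFT-B, -0.67 for IFT-A, -1.12 for motors, -0.10 for ARF-like GTPases and 0.52 for the chaperonin-like pair. Relative to *Gapdh* these medians were 0.08, -0.30, -0.84, 0.35 and 0.95, with -0.56 for the BBSome, so IFT-B and the ARF-like GTPases turned, while the median of all genes moved to 0.51 and lay above each of them but the chaperonin-like pair. The level of IFT-A with COR likewise became -0.19, beside -0.23 for all genes.

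**Figure D4:**
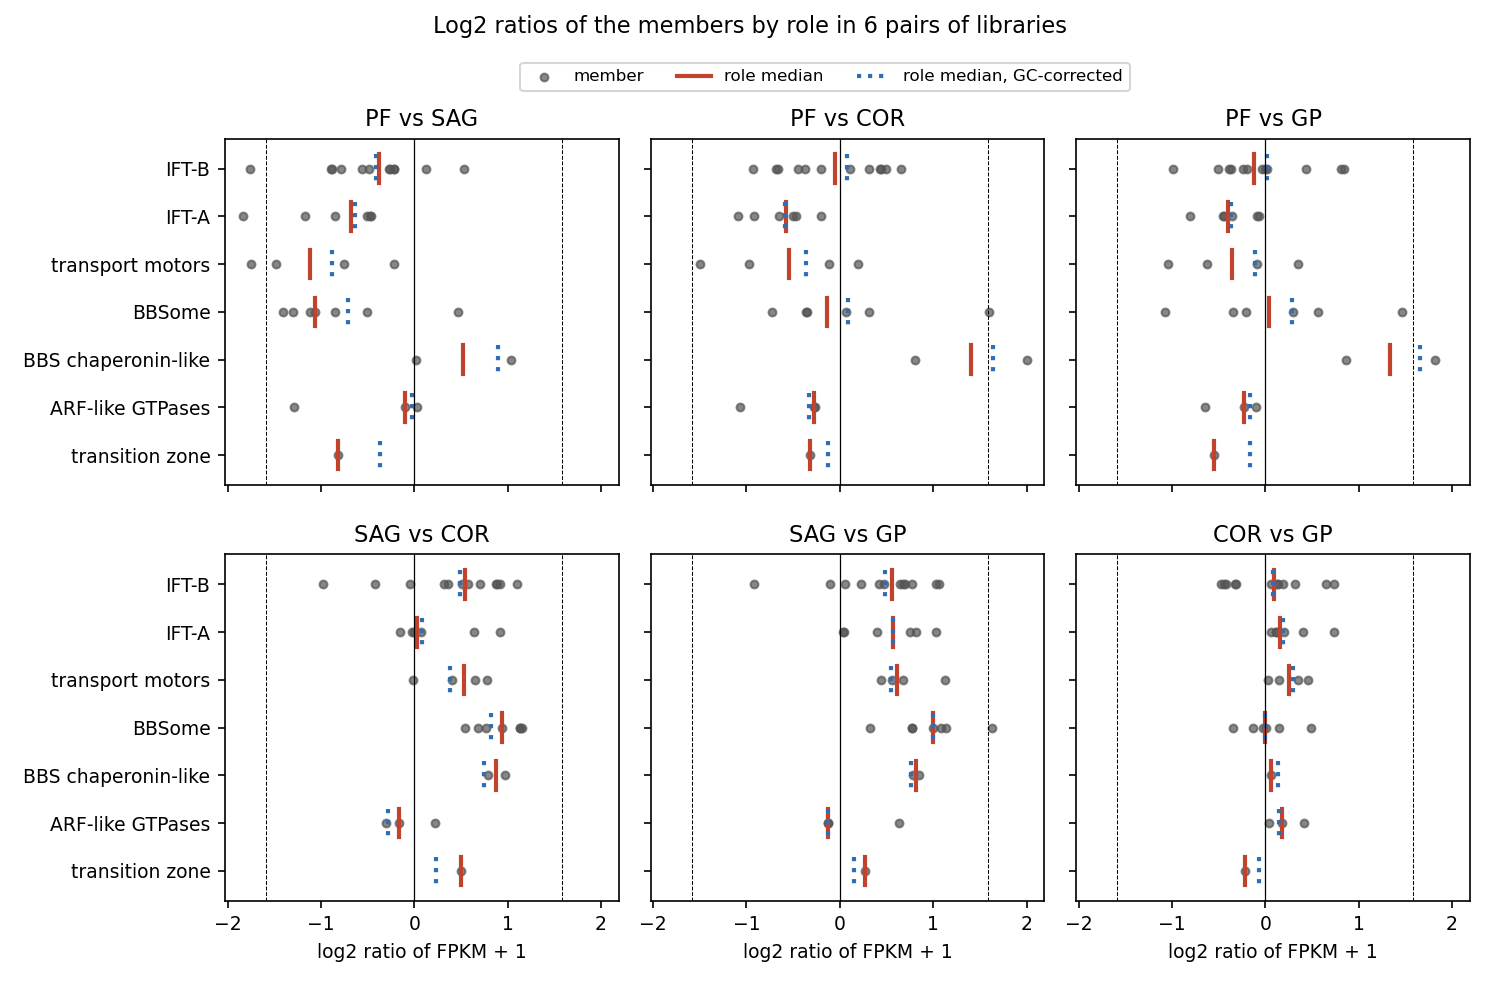
Log2 ratio of FPKM + 1 of each gene by role in the 6 pairs of libraries, with role medians as solid bars, GC-corrected medians as dotted bars and 3-fold as dashed lines. BBSome points sit right of 0 in both SAG panels with SAG first, IFT-A points sit left of 0 in the 3 PF panels, and the COR and GP panel is gathered near 0.

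COR and GP, a suture and a long-bone tissue, were the closest pair for these genes, as they were for all genes. Of all genes, 4.4% were past 3-fold in either direction in this pair, against 8.66% to 15.7% in the others. None of the 33 genes tested was past 2-fold in either direction, beside 9.95% of all genes (1.2% past 3-fold higher in COR and 3.2% lower), and the median was 0.11, with quartiles at -0.02 and 0.32. *Ift122* at 0.74 was among the farthest from 0. Over all 4 libraries, the range of a gene had a median of 0.92 on the log2(FPKM + 1) scale, the same as the 0.92 of 11481 genes in the same band of levels. Of the 35, 7 had a range under 1.5-fold, 15 of 2-fold or more and 6 of 3-fold or more, the last being *Bbs10*, *Wdr35*, *Ift88*, *Dync2li1*, *Ttc8* and *Bbs2*. In their overall spread the ciliary genes were thus like other genes of the same level.

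Other genes of the pathway were taken from lists by role, with 82 to 86 of them tested per pair. Past 3-fold were 8 of 84 in PF against SAG, 4 of 82 in PF against COR, 2 of 83 in PF against GP, 5 of 85 in SAG against COR, 3 of 86 in SAG against GP and 2 of 82 in COR against GP, beside 15.7%, 11.7%, 12%, 9.25%, 8.66% and 4.4% of all genes in either direction. None of the 6 counts was thus above the background share. The transition zone list, the gate proteins at the ciliary base, had 4 of 20 genes lower in PF than SAG past 3-fold, beside 9.04% of all genes lower in PF. None of the 20 was past 3-fold higher, and the median was -0.26. These were *Iqcb1* (2.46 FPKM for PF, 13.7 for SAG, 3.29 for COR and 6.66 for GP), *Tmem17* (5.49, 19.4, 11.0 and 16.2), *Tmem67* (1.45, 7.55, 3.17 and 4.02) and *Tctn3* (1.74, 10.4, 8.75 and 7.84). Being named for a 3-fold difference, these genes are no sample of the list, in which 13 of 20 genes were lower in PF and 7 higher. Basal body genes had a PF to SAG median of -0.33 with 0 of 14 past 3-fold, the further IFT, motor and BBS genes one of -0.26 with 0 of 12, and membrane and cargo genes one of -0.13 with 1 of 13, *Unc119* (17.7, 64.0, 15.9 and 17.6 FPKM), which encodes a carrier of lipidated ciliary proteins. Relative to *Gapdh* these 4 medians turned, to 0.11 for the transition zone, 0.09 for basal bodies, 0.26 for the further transport genes and 0.32 for membrane and cargo, all below the 0.51 of all genes.

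Genes of Hedgehog signaling that work through the cilium ran the other way, with a PF to SAG median of 1.04 over 12 genes and 0.82 after GC correction. *Gli1*, a transcriptional target and effector of the pathway, was at 7.86 FPKM for PF, 0.668 for SAG, 3.99 for COR and 2.06 for GP. *Hhip*, a target that sequesters the ligands, was at 2.51, 0.271, 8.49 and 1.89 FPKM, so SAG was lowest for both. *Ptch1*, of the same list and named after its values were seen, was at 0.784, 0.586, 2.18 and 1.43 FPKM. PF was thus highest for *Gli1*, but COR for *Hhip* and *Ptch1*. The ligand *Ihh* was at 44.0 FPKM in GP, 6.48 in COR, 0.381 in SAG and 0.136 in PF, and *Rab23*, an inhibitor of the pathway, was at 4.36, 7.16, 15.4 and 11.3 FPKM in PF, SAG, COR and GP. Cilium disassembly genes had a PF to SAG median of -0.74 over 6 genes, of which *Nek2*, a kinase active in dividing cells, was past 3-fold at 0.275, 5.71, 3.87 and 2.40 FPKM. The RFX and Foxj1 factors had a median of -1.02 over 7 genes. Their levels were low. *Rfx3* was at 0.0885 FPKM for PF, 2.04 for SAG, 0.490 for COR and 0.435 for GP. *Foxj1*, the regulator of motile cilia, was at 0.418, 3.99, 0.0918 and 0.0229 FPKM. *Rfx4* was also highest in SAG, at 1.57 FPKM. In contrast, *Rfx1* was highest in PF (3.19 FPKM), *Rfx2* and *Rfx5* in COR (2.35 and 5.35) and *Rfx7* in GP (2.19). SAG was above COR for 4 of the 7 tested and below it for 3, with a median of 0.002. These factors were named after their values were seen.

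**Figure D5:**
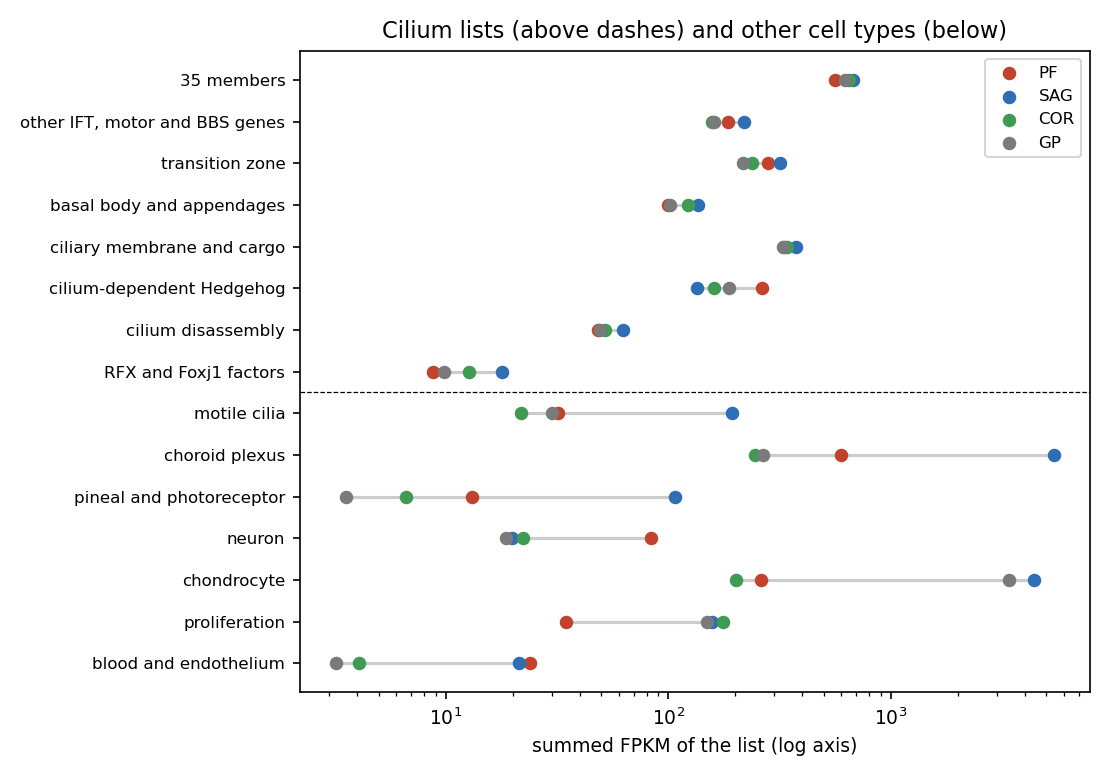
Summed FPKM of each list in each library (log axis), with cilium lists above the dashed line and markers of other cell types below it. The 35 genes span 560 to 678 FPKM, while motile cilia genes reach 194 in SAG and 21.8 to 32.1 elsewhere, choroid plexus genes 5398 in SAG, and proliferation genes are lowest in PF at 34.7.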

How the data were processed

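Bulk RNA-seq of sorted cells had been made with a low-input kit that amplifies cDNA. According to the methods and the submitters' processing notes, the authors mapped paired reads to mm9 with STAR 2.5.1b and estimated FPKM with Cuffdiff of the Cufflinks 2.2.1 suite. The deposited values are FPKM, 1 table per tissue, and any scaling between libraries is not given in the sources used here. Fragment counts were not analysed here, so the depth is unknown beyond the relative estimate from FPKM steps, and no interval was computed.

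Log2 ratios of FPKM + 1 were taken between libraries for genes at 1 FPKM or more in at least 1 of the pair, with 3-fold as the threshold and 2-fold as a second rule, each beside the share of all genes past it. The pairs share libraries and are not independent. No test was run, as each tissue has 1 library. GC content and length came from GENCODE vM1 on NCBIM37, known for 93.8% of the 13998 genes at 1 FPKM or more in any library, and GC correction was a loess fit over all genes (span 0.3, 3 iterations). Alternatives covered the pseudocount, the filter, scaling, GC content and length. The code was tested on simulated data. The 35 genes and all lists were chosen with earlier results of these data known. All 35 were named. Of the pathway lists those past 3-fold in a pair and at 5 FPKM or more in the higher library were named, and of the marker lists the gene with the highest FPKM. Computation used Python 3.11.15, numpy 2.4.6, pandas 2.3.3, scipy 1.17.1 and statsmodels 0.14.6.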

Additional observations from a re-analysis of the deposited data

How the results depend on the processing

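With 1 library per tissue no value carries a replicate error, none of the differences can be assigned to the tissue rather than its library, and no library was left out within a tissue. The amplified low-input libraries and the low depth of PF limit values under 1 FPKM most, where the pseudocount sets the ratio. No paired analysis was possible because each group has 1 library and no result comes from a test.

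Of the summary results, 129 recomputed values stayed within a factor of 1.5 of the reported ones, or within 0.1 for log2 values, 35 moved and 1 reversed. That rule is wide. The PF to SAG median of -0.84 with a pseudocount of 0.1, reported as -0.56, counted as not moved. Log2 ratios of single genes were recomputed with a pseudocount of 0.1 and with median-ratio scaling alone. Of these, 404 stayed within 1.5-fold of the reported ratio and 8 moved further, the 8 with the pseudocount. Median-ratio scaling changed the sign of 7 ratios, all within 0.051 of 0 as reported. With the pseudocount of 0.1, genes past 3-fold numbered 5 in PF against SAG, 3 in PF against GP and 1 in SAG against COR, and in the pathway lists 21, 12, 10, 9 and 7 in PF against SAG, COR and GP and in SAG against COR and GP. The share of all genes was not recomputed with it, so these counts cannot be set beside the shares given above. Relative to *Gapdh*, 0, 2 and 0 genes were past 3-fold in PF against SAG, PF against GP and SAG against GP. The medians were then -0.22 in PF against SAG, -0.057 in PF against COR, 0.19 (reversed in sign) in PF against GP, 0.38 in SAG against COR and 0.30 in COR against GP, while 14 genes were highest in SAG and 8 lowest in PF. *Gapdh* scaling moved the median of all genes to 0.51, 0.29, 0.46, -0.23, -0.03 and 0.21 over the 6 pairs, in the order PF against SAG, COR and GP, SAG against COR and GP, and COR against GP. GC correction left 0 genes past 3-fold in PF against SAG and 0 in SAG against GP, and gave medians of -0.13 in PF against COR and -0.10 in PF against GP. Quantile normalization left 1 gene past 3-fold in PF against COR. Requiring 5 FPKM left 1 in PF against COR and 0 in PF against GP, with 13 of 25 genes lowest in PF and 17 of 35 at 5 FPKM or more in every library; requiring 1 FPKM in both libraries of the pair also left 1 and 0. A 2-fold threshold gave 11, 5, 4, 4 and 7 genes in PF against SAG, COR and GP and in SAG against COR and GP, and the shares of all genes, where computed, are given above by direction. Without the ciliary genes of 1 or 2 exons, chosen after seeing the data, 1 remained in PF against COR and 0 in PF against GP. Except for construction, such as fewer genes tested, the cause of these moves was not tested.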

Other observations

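Ciliary genes of few exons were looked at after their values were seen. *Bbs10* and *Bbs12* have 2 exons and *Ttc30b* has 1 in their longest transcripts. Over all genes of 1 or 2 exons the median log2 ratio was 0.41 in PF against COR (n = 1467), 0.28 in PF against SAG and 0.31 in PF against GP, while for genes of more exons it was 0.00, -0.01 and -0.01. Ciliary genes of more exons had a median of -0.35 in PF against COR and -0.77 in PF against SAG. The part of exon number in the high *Bbs10* value of PF was not tested.

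Markers of further cell types also differed between the libraries. Chondrocyte genes summed to 4389 FPKM in SAG and 3379 in GP against 261 in PF and 202 in COR, with *Col2a1*, the main cartilage collagen, at 1750, 1731, 31.4 and 35.4 FPKM in those libraries. Pineal and photoreceptor genes summed to 108 FPKM in SAG, 13.1 in PF, 6.66 in COR and 3.58 in GP, and their leading gene *Tph1* was at 50.7, 4.27, 0.763 and 0.513 FPKM, respectively. The neuron list had its highest sum in PF, at 83.4 FPKM against 19.8 in SAG, 22.3 in COR and 18.6 in GP. Most of the PF sum was *Gap43* (78.8, 8.41, 11.7 and 14.5 FPKM). Gene by gene, 4 of the 6 tested were lower in PF than in SAG, with a median log2 ratio of -1.09. PF was above COR for 2 of the 3 tested and above GP for all 3. Neuron genes at 1 FPKM or more numbered 6 for SAG, 3 each for PF and GP, and 2 for COR. Blood and endothelium genes summed to 23.9 for PF, 21.4 for SAG, 4.06 for COR and 3.21 for GP. Most of the SAG sum was *Kdr*, a receptor of endothelial cells, which the gate removed by Tie2, at 2.12, 14.9, 0.369 and 0.163 FPKM in that order. Of the other endothelial genes, *Cdh5* (1.68 in PF, 0.649 in SAG) and *Pecam1* (0.295 and 0.193) were higher in PF, and *Tek* (0.131 and 0.627) was higher in SAG. Most of the PF sum was the hemoglobin genes *Hba-a1* (9.40 FPKM) and *Hbb-b1* (6.06 FPKM).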
